A study of Mus musculus with 24 samples.

Results

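Carnosine dipeptidases and peptide transport were described here by 5 genes, out of 18782 measured by a probe set that lists no other symbol: *Cndp1* and *Cndp2* (carnosine breakdown), *Carns1* (carnosine synthesis), and *Slc15a2* and *Slc15a1* (uptake of small peptides). The members were named by symbol, and each was read from its probe set of highest mean over the arrays. Kidney RNA came from 24 mice, 6 in each of 4 groups: BPH/2J females and BPH/2J males, the Schlager hypertensive strain, and BPN/3J females and BPN/3J males, its normotensive counterpart. All mice were 12 weeks old, none was treated, and blood pressure was not recorded in the animals used for the arrays. The strains are inbred lines that differ at many loci, so a strain difference is not the effect of 1 gene. Each mouse gave 1 Affymetrix Mouse Gene 1.0 ST array, and values are expression on the log2 scale after normalisation by the authors with robust multiarray analysis (RMA), on which a difference of 1 stands for a change of 2-fold.

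Carnosine is a dipeptide of beta-alanine and histidine. The ATP-dependent ligase *Carns1* makes it, chiefly in skeletal muscle and brain, and the metallopeptidases *Cndp1* (carnosine dipeptidase) and *Cndp2* (cytosolic nonspecific dipeptidase) cut it back to its amino acids. In the kidney, dipeptides that are filtered at the glomerulus are taken back by proton-coupled carriers of the proximal tubule, the high-affinity carrier *Slc15a2* (PEPT2) in its later segments and the low-affinity carrier *Slc15a1* (PEPT1) in its first segment. Peptides that enter the tubule cell are then hydrolysed inside it, and histidine set free can be turned into histamine by *Hdc*.

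Array medians lay between 6.89 and 6.97, and arrays of the same group correlated at 0.981 to 0.997 across probe sets. The mean of 10 proximal tubule markers was 12.79 ± 0.0225 in BPH/2J females, 12.85 ± 0.0407 in BPH/2J males, 12.85 ± 0.0384 in BPN/3J females and 12.89 ± 0.0319 in BPN/3J males (SD, n = 6 each), near the top of all values (2.12 to 14.55). Single markers went both ways (Benjamini-Hochberg adjusted p under 0.05 by limma). In BPH/2J 3 were higher and 3 lower in females (list range −0.91 to 0.28), against 15.6% and 13.4% of all probe sets. In BPN/3J 4 were higher and 2 lower (−0.98 to 0.29), against 14.4% and 14.8%. For strain 1 was higher and 1 lower in each sex, against 8.01% and 6.48% in females and 7.48% and 7.70% in males. The part of these markers in the members' differences was not tested. Transcripts of neighbouring tissues varied between arrays. Mean expression of 14 hepatocyte markers was highest in BPN/3J females 2 and 5 (11.93 and 12.19), against 10.20 at most in all other arrays, and 9 adrenal cortex markers ranged from 5.69 to 10.18 over the 24 arrays. In whole kidney, fewer cells of a type and less RNA per cell cannot be told apart.

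*Cndp1* was the member in which strain and sex crossed. It was 2.35-fold higher in BPH/2J than in BPN/3J females, whereas the values in BPH/2J males lay below those of BPN/3J males, and in both strains females had less of it than males. *Cndp1* ranged from 9.81 to 10.02 (median 9.93) in BPH/2J females and from 10.51 to 10.87 (median 10.67) in BPH/2J males. Its range was 8.57 to 8.94 (median 8.62) in BPN/3J females and 11.03 to 11.24 (median 11.10) in BPN/3J males. No array of any group fell within the range of another group, and the order from high to low was BPN/3J males, BPH/2J males, BPH/2J females and BPN/3J females. The smallest gap between neighbouring groups, 0.157, separated the lowest BPN/3J male from the highest BPH/2J male.

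The strain difference of *Cndp1* (BPH/2J minus BPN/3J) was 1.23 in females (standard error 0.0656, Bonferroni-adjusted p = 3.55e-06 by limma). In males it was −0.45 (standard error 0.0599) and missed the Bonferroni threshold of 0.05 that was used for strain comparisons (adjusted p = 0.114), while it passed a Benjamini-Hochberg adjusted p under 0.05 (adjusted p = 0.000132). This call turned on settings: without BPH/2J male 2, which held the highest value of its group (10.87), the difference was −0.49 with a Bonferroni-adjusted p of 0.0180, and it also passed when all 24 arrays shared the fit (adjusted p = 0.00865). The sex difference (female minus male) was −0.74 in BPH/2J (standard error 0.0591, 1.68-fold lower in females, Benjamini-Hochberg adjusted p = 8.47e-07). In BPN/3J it was −2.43 (standard error 0.0662, 5.38-fold lower in females, adjusted p = 3.13e-11). The difference between these sex differences is the same quantity as the strain-by-sex interaction, which was 1.68 (standard error 0.0897, adjusted p = 1.59e-11 by limma on 24 arrays).

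**Figure D1:**
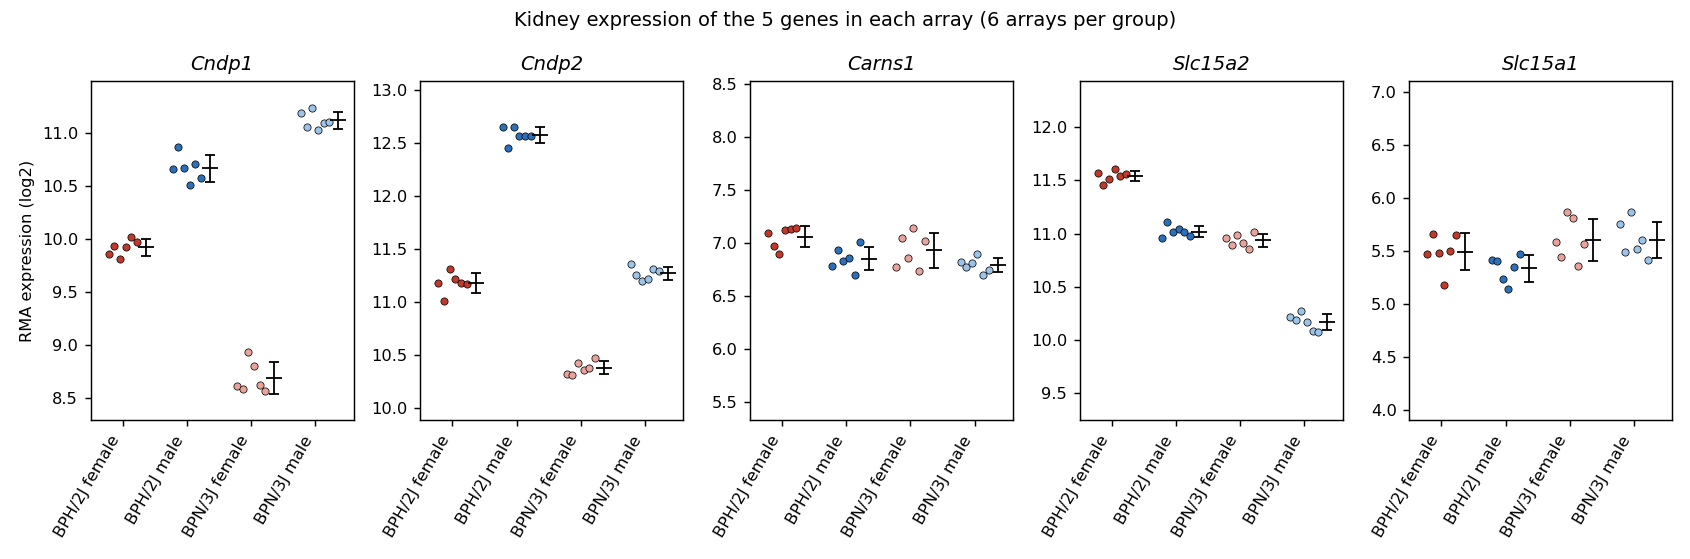
Expression of the 5 genes in each array (y axis, RMA log2, each panel spanning the same width) for the 4 groups along the x axis; points are arrays, the horizontal bar is the group mean and the whiskers are 1 SD (n = 6). *Cndp1* forms 4 separate groups from 8.57 to 11.24, and neighbouring groups of *Carns1* and of *Slc15a1* overlap.

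*Cndp2*, the cytosolic dipeptidase, was higher in BPH/2J than in BPN/3J kidneys of both sexes and lower in females than in males of both strains. *Cndp2* ranged from 11.01 to 11.31 (median 11.18) in BPH/2J females and from 12.45 to 12.65 (median 12.565) in BPH/2J males. It ranged from 10.31 to 10.47 (median 10.37) in BPN/3J females and from 11.20 to 11.35 (median 11.27) in BPN/3J males. BPH/2J males stood apart at the top, with their lowest array 1.093 above the highest BPN/3J male, and BPN/3J females stood apart at the bottom. BPH/2J females and BPN/3J males lay between them, overlapped, and had means 0.09 apart, less than the range of either group (0.301 and 0.158).

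*Cndp2* was 1.74-fold higher in BPH/2J than in BPN/3J females (log2 difference 0.80, standard error 0.0490, Bonferroni-adjusted p = 2.00e-05 by limma) and 2.47-fold higher in males (1.30, standard error 0.0447, adjusted p = 7.65e-09). The sex difference was −1.40 in BPH/2J (standard error 0.0520, Benjamini-Hochberg adjusted p = 4.86e-10) and −0.89 in BPN/3J (standard error 0.0410, adjusted p = 4.37e-09), which is 2.63-fold and 1.86-fold less in females. On these arrays the strain difference was thus larger in males, with an interaction of −0.50 (standard error 0.0642, adjusted p = 3.21e-05). The authors' qPCR on the same RNA gave *Cndp2* the larger fold change in females. On the arrays *Cndp1* had an interaction of the opposite sign to that of *Cndp2*. In males the strain difference of the pair ran in opposite directions, −0.45 for *Cndp1* and 1.30 for *Cndp2*.

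*Carns1*, the carnosine synthase, varied little. Its range was 6.90 to 7.14 (median 7.11) in BPH/2J females, 6.70 to 7.01 (median 6.85) in BPH/2J males, 6.74 to 7.14 (median 6.94) in BPN/3J females and 6.70 to 6.90 (median 6.79) in BPN/3J males. All neighbouring groups overlapped. Markers of the tissues that express it most were low, with list means of 6.15 to 6.36 for 8 skeletal muscle genes and 5.89 to 5.95 for 6 neuron and glia genes over the 4 groups. The strain difference was 0.13 in females (standard error 0.0741) and 0.06 in males (standard error 0.0540), with a Bonferroni-adjusted p of 1 in each. *Carns1* was 1.15-fold higher in females than in males of BPH/2J (0.21, standard error 0.0595, Benjamini-Hochberg adjusted p = 0.0185 by limma). This call was lost when arrays were given a common median (0.17, adjusted p = 0.0514). It was also lost by Bonferroni and when a change over 1.5-fold was asked for as well. Of the 8 muscle genes, 1 (*Myh1*, 0.31) was likewise higher there, against 15.6% of all probe sets. The median difference of the muscle list was 0.0016, with a range of −0.13 to 0.31. The part of the muscle genes in the difference of *Carns1* was not tested. In BPN/3J the sex difference was 0.14 (standard error 0.0695, adjusted p = 0.162).

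*Slc15a2*, the high-affinity renal peptide carrier, was higher in BPH/2J than in BPN/3J kidneys of both sexes and, unlike the dipeptidases, higher in females than in males. *Slc15a2* ranged from 11.46 to 11.61 (median 11.55) in BPH/2J females and from 10.95 to 11.11 (median 11.02) in BPH/2J males. It ranged from 10.86 to 11.01 (median 10.94) in BPN/3J females and from 10.07 to 10.27 (median 10.18) in BPN/3J males. BPH/2J females lay above all other arrays and BPN/3J males below all others, whereas BPH/2J males and BPN/3J females overlapped, with means 0.08 apart. BPN/3J males, the lowest group here, were the highest of *Cndp1*, while BPH/2J males were the highest of *Cndp2*.

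The strain difference of *Slc15a2* was 0.61 in females (standard error 0.0384, 1.52-fold, Bonferroni-adjusted p = 2.82e-05 by limma) and 0.85 in males (standard error 0.0439, 1.81-fold, adjusted p = 1.36e-06). Females exceeded males by 0.52 in BPH/2J (standard error 0.0379, 1.44-fold, Benjamini-Hochberg adjusted p = 3.56e-07) and by 0.77 in BPN/3J (standard error 0.0442, 1.71-fold, adjusted p = 3.58e-08). The interaction was −0.25 (standard error 0.0548, adjusted p = 0.0160), the smallest of the 3 that passed. It did not pass by Bonferroni, the adjustment of the strain comparisons (adjusted p = 1), nor when a change over 1.5-fold was asked for as well, nor with the mean of brown fat markers as a covariate (−0.16, adjusted p = 0.257).

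The promoters of the peptide carriers are shown because their calls differed: *Slc15a2* was called in all 5 comparisons and *Slc15a1* in none. Values of *Slc15a1* (5.14 to 5.86) lay well under the array medians, so its lack of calls does not show that the gene was unchanged. For strain in males it had a Benjamini-Hochberg adjusted p of 0.0381 by limma. The part of the promoter letters in these differences was not tested. Sequences are from RefSeq, build GRCm38.p6 of the C57BL/6J genome and not of BPH/2J or BPN/3J, and run from 250 bases before to 50 bases after the annotated start on the minus strand. The window of *Slc15a2* is chr16:36784913-36785212 (start at 36784962, 196 bases inside the outer end of the gene), and that of *Slc15a1* is chr14:121505205-121505504. Capitals mark TGTTCT, the reverse complement of AGAACA, the hexamer of androgen and glucocorticoid receptor elements.
Slc15a2: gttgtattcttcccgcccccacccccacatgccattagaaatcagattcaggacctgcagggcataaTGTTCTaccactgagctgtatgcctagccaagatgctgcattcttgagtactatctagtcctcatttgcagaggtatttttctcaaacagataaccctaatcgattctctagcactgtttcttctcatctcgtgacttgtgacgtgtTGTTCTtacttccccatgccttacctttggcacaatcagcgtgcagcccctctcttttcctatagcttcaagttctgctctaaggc
Slc15a1: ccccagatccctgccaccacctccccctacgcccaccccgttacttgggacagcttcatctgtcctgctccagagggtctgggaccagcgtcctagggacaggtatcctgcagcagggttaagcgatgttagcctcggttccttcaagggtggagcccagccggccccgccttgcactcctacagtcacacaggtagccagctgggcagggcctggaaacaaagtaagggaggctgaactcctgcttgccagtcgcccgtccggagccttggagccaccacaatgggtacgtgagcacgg
AGAACA was found at 2 places in the *Slc15a2* window on the reverse strand, at −183 and −36 relative to the start, and at 0 in the *Slc15a1* window. Of 32851 promoter windows of the same length in the table, 19.0% held AGAACA on either strand. AGGTCA (found in 16.3% of windows) and TATAAA (13.6%) were absent from both windows, and GGGCGG (35.7%) was found at 1 place in that of *Slc15a2*, on the reverse strand at −238. A match is a description of the letters and not a binding site.

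*Slc15a1*, the low-affinity carrier, was read from a probe set with values well under the array medians, and the deposited values carry no call of detection. It ranged from 5.175 to 5.65 (median 5.49) in BPH/2J females, 5.14 to 5.47 (median 5.37) in BPH/2J males, 5.36 to 5.86 (median 5.58) in BPN/3J females and 5.41 to 5.86 (median 5.56) in BPN/3J males. All neighbouring groups overlapped. The strain difference was −0.11 in females (standard error 0.0994, Bonferroni-adjusted p = 1) and −0.27 in males (standard error 0.0809, adjusted p = 1), and that in males had a Benjamini-Hochberg adjusted p of 0.0381. The sex difference was 0.16 in BPH/2J (standard error 0.0818, adjusted p = 0.189) and −0.00067 in BPN/3J (standard error 0.0985, adjusted p = 0.997). Without BPH/2J female 4, the lowest of its group, the sex difference in BPH/2J was 0.22 with an adjusted p of 0.0294.

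**Figure D2:**
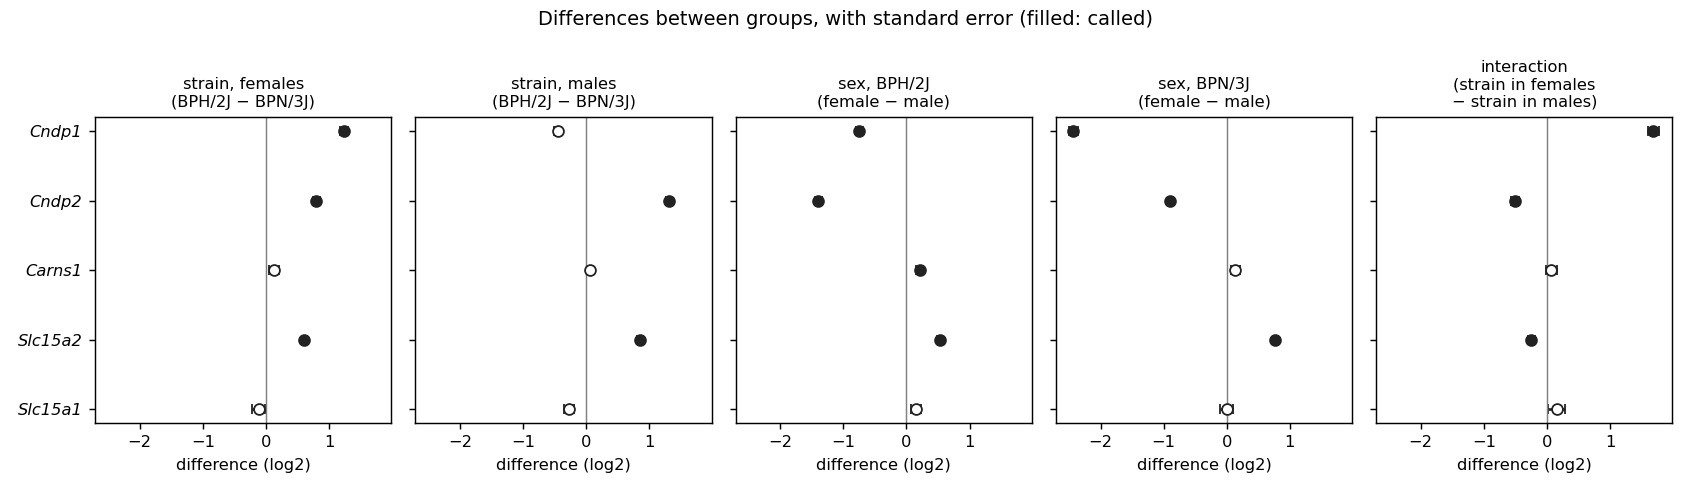
Log2 differences of the 5 genes (x axis) in each of the 5 comparisons (panels), with the standard error as whiskers; filled points passed the threshold of that comparison (Bonferroni for strain, Benjamini-Hochberg for sex and the interaction). *Cndp1* lies at 1.23 in females and −0.45 in males for strain, and *Slc15a2* lies on the opposite side of 0 from the dipeptidases in both sex comparisons.

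Counted over the members, 3 of 5 passed in the strain comparison of females (*Cndp1*, *Cndp2* and *Slc15a2*, all higher in BPH/2J) against 2.36% of all 28853 probe sets, and 2 of 5 in that of males (*Cndp2* and *Slc15a2*, both higher in BPH/2J) against 2.56%. For sex, 4 of 5 passed in BPH/2J against 28.9% of probe sets, with *Cndp1* and *Cndp2* lower and *Carns1* and *Slc15a2* higher in females. In BPN/3J 3 of 5 passed against 29.2%, the same genes but for *Carns1*. The interaction was passed by 3 of 5 (*Cndp1*, *Cndp2* and *Slc15a2*) against 1.76% of probe sets. The ranges of the 2 groups did not overlap for 3 members in each of the 4 comparisons between groups (*Cndp1*, *Cndp2* and *Slc15a2*), against 9.34% of probe sets for strain in females, 9.65% for strain in males, 18.2% for sex in BPH/2J and 17.6% for sex in BPN/3J. The members were chosen with earlier results of these data known, and the study itself picked *Cndp2* from these arrays. These counts are thus a description and not a test against the shares of all probe sets.

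The interaction of *Cndp1* ranked 4 by p and 27 by size among the 28853 probe sets, and that of *Cndp2* ranked 55 by p. Past a Benjamini-Hochberg adjusted p under 0.05 in both strain comparisons were 2364 probe sets (8.19%). Of these, 30 (0.104% of all) had strain differences of opposite sign in females and males, and *Cndp1* was among them, with the interaction that ranked 2 by size among the 30. *Cndp1*, *Cndp2* and *Slc15a2* were also among the 84 probe sets (0.291%) that passed this threshold in both strain comparisons, both sex comparisons and the interaction. The comparisons share groups of arrays, so the 5 results of a gene are not independent of each other.

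**Figure D3:**
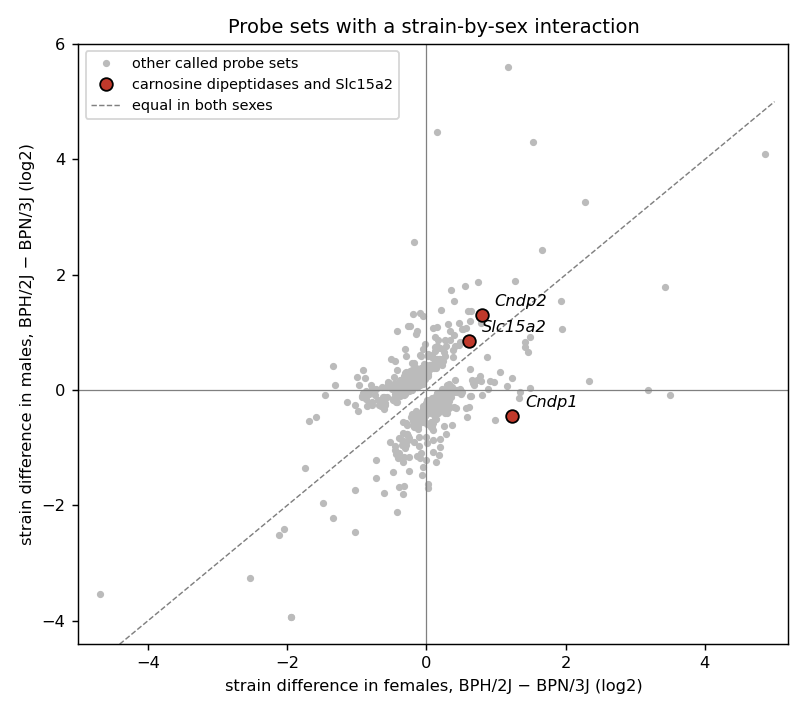
Strain difference (BPH/2J minus BPN/3J, log2) in females (x axis) and in males (y axis) for the 508 probe sets that passed the interaction after Benjamini-Hochberg adjustment; the dashed line marks equal differences and red points are *Cndp1*, *Cndp2* and *Slc15a2*. *Cndp1* lies in the lower right at 1.23 and −0.45, while *Cndp2* (0.80 and 1.30) and *Slc15a2* (0.61 and 0.85) lie above the line.

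Markers of other tissues and segments moved with some of these comparisons. Beside the sex differences of the dipeptidases and of *Slc15a2*, the mean of 6 S3 segment markers (the last part of the proximal tubule) ranged from 9.90 to 10.05 in BPH/2J females against 11.80 to 11.91 in BPH/2J males. In BPN/3J its range was 9.74 to 10.05 for females against 11.73 to 11.82 for males. In each strain 2 of the 6 were higher and 3 lower in females, led by *Slc7a13* at −6.05 in BPH/2J and −6.91 in BPN/3J. Over all probe sets 15.6% were higher and 13.4% lower in BPH/2J females, and 14.4% and 14.8% in BPN/3J females. The part of the S3 markers in the sex differences was not tested. The mean of 9 adrenal cortex markers was at most 9.81 in BPH/2J females against 8.51 in BPH/2J males. It was at most 10.18 in BPN/3J females against 8.89 in BPN/3J males, with lowest values of 5.69 to 5.80 in all 4 groups. Of the 9, 2 (*Nr5a1* and *Scarb1*) were higher in BPH/2J females than males, against 15.6% of all probe sets. In BPN/3J 0 of 9 passed, against 14.4% higher and 14.8% lower. Of 6 brown fat markers, 4 (*Ucp1*, *Adipoq*, *Plin1* and *Fabp4*) were higher in BPH/2J females than males, against 15.6% of all probe sets. In BPN/3J 1 of them (*Ucp1*, −1.45) was lower in females than males, against 14.8%. Of 14 hepatocyte markers, 2 were lower in BPH/2J females than males and 1 in BPN/3J females, against 13.4% and 14.8% of all probe sets. Of 8 skeletal muscle markers, 1 was higher in BPH/2J females than males and 2 in BPN/3J females, against 15.6% and 14.4%. The part of the muscle markers in the sex differences was not tested.

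Beside the strain differences in females, 4 of 6 brown fat markers (*Ucp1*, *Cidea*, *Plin1* and *Fabp4*) were higher in BPH/2J, against 8.01% of all probe sets. Brown fat list means were 8.93 to 10.12 in BPH/2J females against 7.86 to 8.82 in BPN/3J females. In the same comparison 2 of 14 hepatocyte markers (*Apob* and *Cyp2e1*) were lower, against 6.48% of all probe sets. Hepatocyte list means were 7.35 to 10.20 in BPH/2J females against 7.47 to 12.19 in BPN/3J females. Of 6 S3 markers, 3 were higher (*Slc7a13*, *Atp11a* and *Slco1a6*) and 2 lower (*Slc22a7* and *Cyp7b1*), against 8.01% and 6.48%. Of 8 skeletal muscle markers, 2 were lower (*Myh1* and *Pvalb*), against 6.48%. In males 2 S3 markers were higher (*Cyp7b1* and *Slco1a6*) and 2 lower (*Slc22a7* and *Slc5a1*) in BPH/2J, 2 muscle markers were lower (*Acta1* and *Pvalb*), and no hepatocyte, adrenal cortex or brown fat marker passed by limma, although 2 of 14, 0 of 9 and 3 of 6 of them had an unadjusted p under 0.05. The part of the S3 and muscle markers in the strain differences was not tested. Without BPN/3J female arrays 2 and 5 the strain differences in females were 1.19 for *Cndp1*, 0.78 for *Cndp2* and 0.58 for *Slc15a2* (Bonferroni-adjusted p = 0.000182, 0.00105 and 0.000777). With the mean of brown fat markers as a covariate, a setting chosen after seeing the data, they were 1.40, 0.87 and 0.68 (adjusted p = 0.00152, 0.0280 and 0.0203). Their standard errors were then 0.115, 0.0933 and 0.0707, against 0.0656, 0.0490 and 0.0384 in the main fit. The brown fat means of the strains did not overlap in females, so brown fat and strain cannot be told apart by this fit. The interaction of *Cndp1* was 1.64 without those 2 arrays and 1.80 with the brown fat covariate, and that of *Cndp2* was −0.52 and −0.51, all past the threshold. With the means of hepatocyte and adrenal cortex markers as covariates, the sex differences were −0.72 for *Cndp1*, −1.38 for *Cndp2* and 0.50 for *Slc15a2* in BPH/2J and −2.40, −0.86 and 0.80 in BPN/3J, all past the threshold.

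The dipeptidase genes lie side by side on chromosome 18 in GRCm38.p6, *Cndp1* at 84610384 to 84650234 and *Cndp2* at 84667465 to 84685702, with 17.2 kb between them. The 4 nearest annotated genes with a probe set on each side (*Zfp516*, *Tshz1*, *Zadh2* and *Zfp407* on the *Cndp1* side, *Dipk1c*, *Cyb5a*, *Fbxo15* and *Timm21* on the *Cndp2* side) lay 20.8 to 1605 kb away. None of these 8 passed a Benjamini-Hochberg adjusted p under 0.05 for strain in females (differences −0.03 to 0.08), for strain in males (−0.02 to 0.08) or for the interaction (−0.10 to 0.10), against 14.5%, 15.2% and 1.76% of all probe sets. *Zfp407*, the nearest, had strain differences of −0.02 in females and 0.08 in males. For sex, the zinc finger gene *Zfp516* was higher in females of both strains (0.45 in BPH/2J and 0.47 in BPN/3J). The homeobox gene *Tshz1* (−0.12 and −0.15) and the cytochrome b5 gene *Cyb5a* (−0.32 and −0.31) were lower in females of both strains, and *Zadh2* was lower in those of BPN/3J (−0.12).

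*Slc15a2* lies on chromosome 16 at 36750161 to 36785158, and the 4 nearest measured genes on each side lay 7.73 to 295 kb away. *Casr*, the calcium-sensing receptor, was higher in BPH/2J in females (0.21, adjusted p = 0.00502) and males (0.22, adjusted p = 0.00271, Benjamini-Hochberg by limma), and *Iqcb1*, a cilium gene, in males (0.26, adjusted p = 0.0227). These 1 of 8 neighbours in females and 2 of 8 in males stand against 8.01% and 7.48% of all probe sets higher in BPH/2J. Strain differences of the other neighbours ranged from −0.11 to 0.12 and did not pass, and none passed the interaction. In BPH/2J 3 of the 8 were higher in females than in males (*Casr* 0.36, *Cd86* 0.27 and *Ildr1* 0.27), against 15.6% of all probe sets, and in BPN/3J 4 were (*Casr* 0.36, *Ildr1* 0.29, *Eaf2* 0.15 and *Iqcb1* 0.37), against 14.4%. *Carns1* is on chromosome 19 at 4164324 to 4175479 and *Slc15a1* on chromosome 14 at 121459621 to 121505254.

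**Figure D4:**
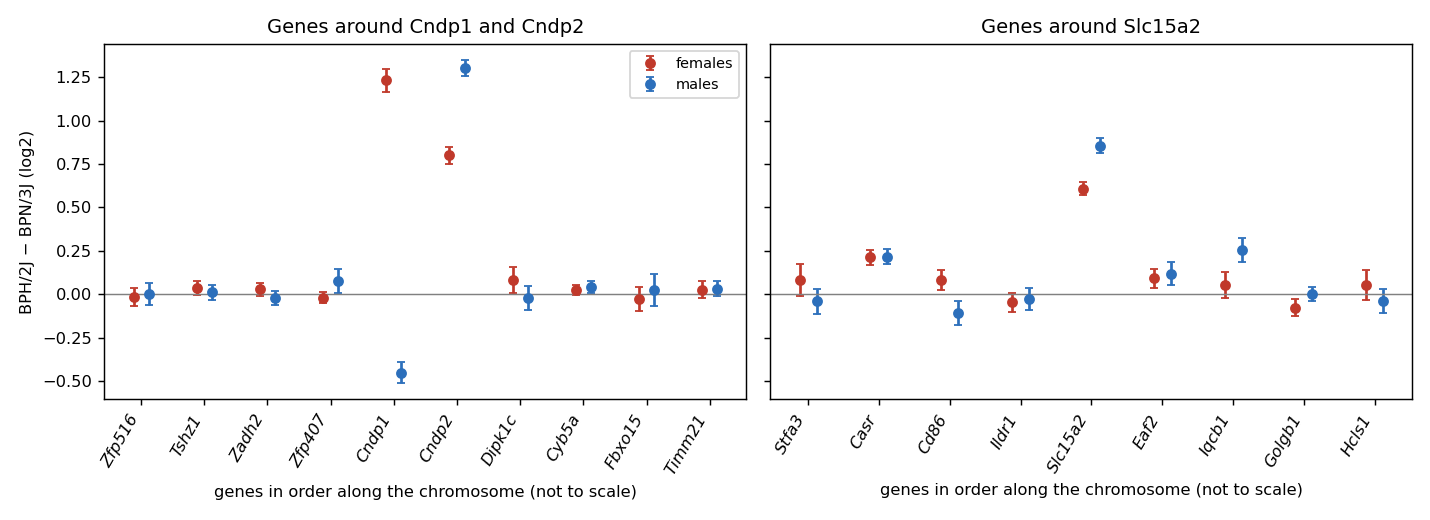
Strain difference (BPH/2J minus BPN/3J, log2, y axis) with its standard error in females (red) and males (blue) for genes in their order along the chromosome (x axis, not to scale), around *Cndp1* and *Cndp2* (left) and around *Slc15a2* (right). The 8 genes around the dipeptidases lie between −0.03 and 0.08 in both sexes, while *Cndp1* and *Cndp2* lie between −0.45 and 1.30.

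Genes whose profile over the 24 arrays lay closest to a member were found by the root mean square difference after each probe set was centred on its own mean. For *Cndp1*, which had an SD of 0.945 over the arrays, these were *Clip4* (0.319), a relative of microtubule-binding proteins, *Nat8* (0.374), an acetyltransferase of cysteine conjugates, and *Cckar* (0.381), a cholecystokinin receptor. All 3 had less RNA in females than in males, with sex differences of −1.11 in *Clip4*, −1.40 in *Nat8* and −1.31 in *Cckar* in BPH/2J and of −1.85, −1.87 and −1.63 in BPN/3J. In females their strain differences were 1.06 for *Clip4*, 0.30 for *Nat8* and 0.48 for *Cckar*. All 3 passed a Benjamini-Hochberg adjusted p under 0.05, with the sign of *Cndp1*. In males their strain differences were 0.32 for *Clip4*, −0.17 for *Nat8* and 0.16 for *Cckar*, of which that of *Clip4* passed, upwards and so against the sign of *Cndp1*.

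Closest to *Cndp2* (SD 0.807) were *Col6a6* (0.267), a collagen chain, *Snx31* (0.290), a sorting nexin, and *Nudt19* (0.293), a peroxisomal coenzyme A hydrolase of kidney. Each was higher in BPH/2J, by 0.31, 0.75 and 0.75 in females and by 1.14, 1.87 and 0.52 in males, and lower in females of both strains. Closest to *Slc15a2* (SD 0.506) were *Shmt1* (0.126), the cytosolic serine hydroxymethyltransferase, *Slit2* (0.132), a secreted guidance protein, and *Rhbg* (0.147), an ammonium carrier. These were higher in BPH/2J by 0.42, 0.54 and 0.80 in females and by 0.76, 0.55 and 0.74 in males, and higher in females by 0.52, 0.60 and 0.50 in BPH/2J and by 0.86, 0.61 and 0.44 in BPN/3J, all past a Benjamini-Hochberg adjusted p under 0.05 by limma. Likeness over groups that share strain and sex says nothing of shared function.

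The other genes of beta-alanine and carnosine metabolism differed mainly in single members. Of 10 measured, 0 were higher and 2 lower in BPH/2J females than BPN/3J females (*Csad* −0.22 and *Dpyd* −0.25), against 8.01% and 6.48% of all probe sets (Benjamini-Hochberg adjusted, as for all lists). *Dpys* had a strain difference of 1.15 in females that did not pass. In males 2 were higher (*Dpys* 1.34 and *Agxt2* 0.26) and 1 lower (*Dpyd* −0.19), against 7.48% and 7.70%. *Dpyd* and *Dpys* encode steps of the pyrimidine breakdown that yields beta-alanine, *Csad* a decarboxylase of taurine synthesis, and *Agxt2* a mitochondrial aminotransferase. *Dpys* averaged 7.65 ± 0.231 in BPH/2J males and 6.31 ± 0.151 in BPN/3J males (SD, n = 6 each). In BPN/3J females it spread from 5.55 to 8.96, and the part of the hepatocyte transcripts there (list means 7.47 to 12.19) was not tested.

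Between the sexes of BPH/2J, 0 of these 10 genes were higher and 4 lower in females (*Csad* −0.72, *Agxt2* −0.44, *Dpyd* −0.22 and *Aldh6a1* −0.13), against 15.6% and 13.4% of probe sets, and in BPN/3J 1 was higher (*Abat* 0.20) and 1 lower (*Csad* −0.56), against 14.4% and 14.8%. The median difference of the list was −0.10 in BPH/2J and −0.09 in BPN/3J, against 0.0022 and −0.02 over all genes with a single-symbol probe set.

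In histidine and histamine metabolism (11 genes measured) *Hdc*, which forms histamine, carried the largest difference of the pathway lists. *Hdc* averaged 12.41 ± 0.0913 in BPH/2J females, 12.09 ± 0.183 in BPH/2J males, 11.24 ± 0.391 in BPN/3J females and 6.49 ± 0.199 in BPN/3J males (SD, n = 6 each), so that the strain difference was 1.17 in females and 5.60 in males. The lowest group of *Hdc*, BPN/3J males, was also the lowest of *Slc15a2* and the highest of *Cndp1*. *Ftcd*, the last enzyme of histidine breakdown, was lower in BPH/2J in females (−1.27) and males (−1.07), and *Uroc1*, the urocanase, was lower in males (−0.59). *Ftcd* spread from 7.73 to 9.20 in BPN/3J females, the group with the widest range of hepatocyte markers, and their part in it was not tested. In all, 1 gene was higher and 1 lower for strain in females, and 1 higher and 2 lower in males, against 8.01% and 6.48% of all probe sets in females and 7.48% and 7.70% in males, so that a count of 1 among 11 lay near the background. *Hdc* and *Cndp2* were singled out by the study on these same arrays, so their strain differences here are not independent evidence.

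For sex, 4 of the 11 histidine genes were higher and 2 lower in females of each strain, against 15.6% and 13.4% of all probe sets in BPH/2J and 14.4% and 14.8% in BPN/3J. *Uroc1* (1.57 in BPH/2J and 1.25 in BPN/3J), *Aoc1*, the diamine oxidase that degrades histamine (0.53 and 0.34), and *Hdc* (0.32 and 4.75) were higher in both, *Maob* was higher in BPH/2J (0.43) and *Hnmt*, the histamine methyltransferase, in BPN/3J (0.28). *Ftcd* (−1.24 and −1.03) and *Hars* (−0.20 and −0.17) were lower in both.

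**Figure D5:**
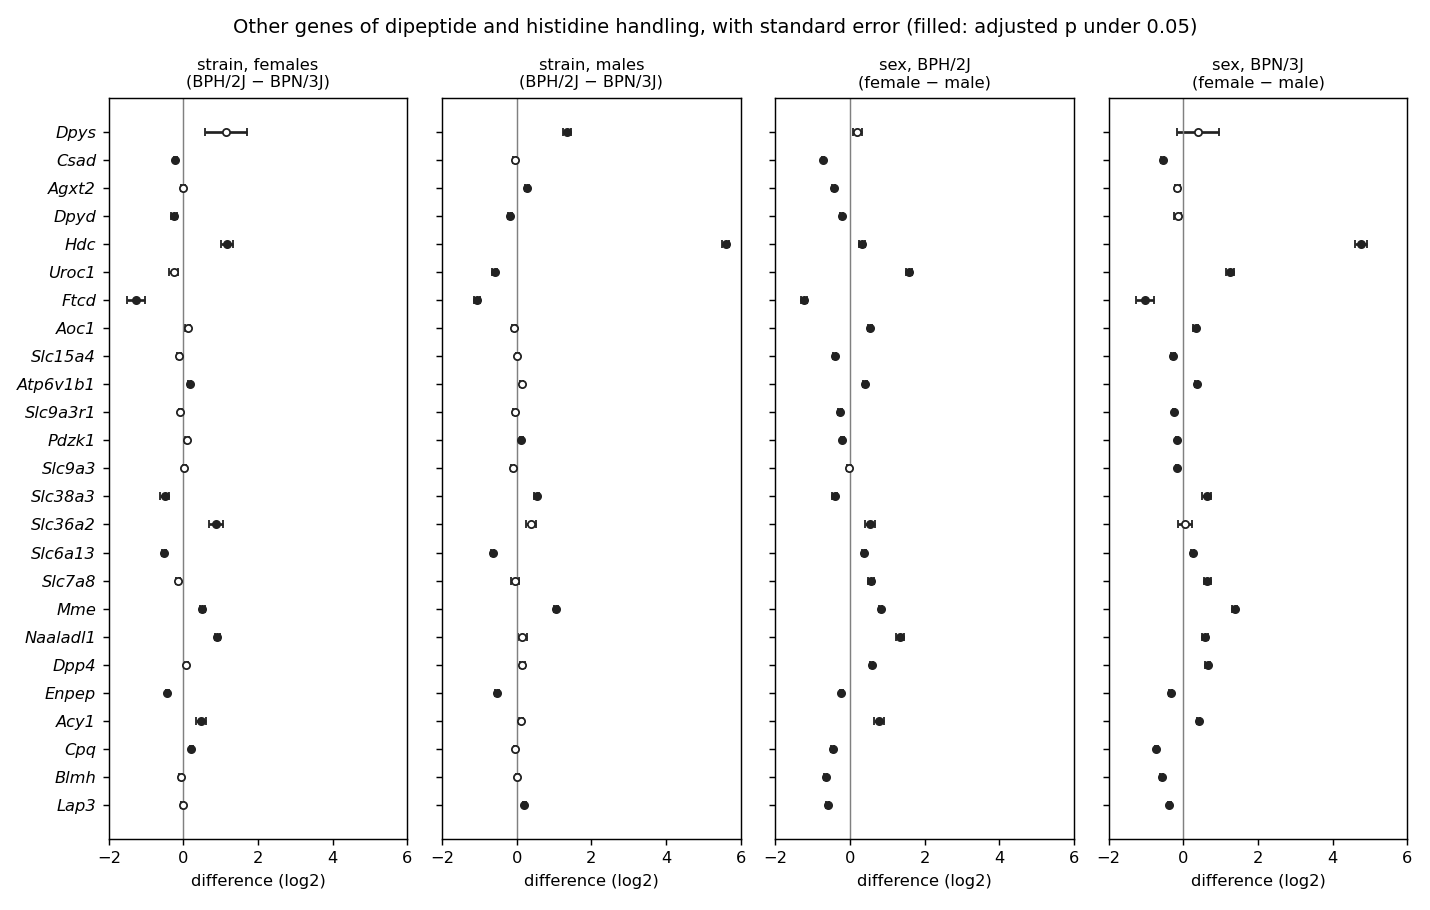
Log2 differences (x axis) with standard errors of 25 genes named from the lists of dipeptide, histidine and peptide handling (rows) in the 4 comparisons between groups (panels); filled points had a Benjamini-Hochberg adjusted p under 0.05. *Hdc* lies at 5.60 for strain in males and 4.75 for sex in BPN/3J, beyond all other rows.

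Among the other Slc15 carriers, *Slc15a4*, the lysosomal histidine and peptide transporter, was lower in females (−0.42 in BPH/2J and −0.28 in BPN/3J), the opposite sign to *Slc15a2*. *Slc15a3* and *Slc15a5* passed in no comparison, and no other Slc15 carrier passed for strain or the interaction. Of 5 measured genes listed for scaffolds and proton supply, *Atp6v1b1*, a proton pump subunit, was higher in females of both strains (0.39 and 0.36). It was also higher in BPH/2J females over BPN/3J females (0.16). Whole-kidney RNA does not show which cells hold this transcript, or whether they are those that take up peptides. *Pdzk1*, a scaffold that binds brush border carriers, was higher in BPH/2J males over BPN/3J males (0.12) and lower in females of both strains (−0.21 and −0.17). The scaffold *Slc9a3r1* was likewise lower in females (−0.28 and −0.25). *Slc9a3*, the sodium-proton exchanger, was lower in BPN/3J females than males (−0.16).

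Of 12 carriers of histidine and beta-alanine, 1 was higher (*Slc36a2* 0.88) and 4 lower (*Slc6a13* −0.52, *Slc38a3* −0.50, *Slc7a9* −0.38 and *Slc36a1* −0.17) in BPH/2J females, and 1 higher (*Slc38a3* 0.53) and 2 lower (*Slc6a13* −0.65 and *Slc7a5* −0.55) in BPH/2J males. Over all probe sets 8.01% were higher and 6.48% lower in females and 7.48% and 7.70% in males, so the share of carriers that was higher lay near the background in both. *Slc38a3*, which moves glutamine and histidine, thus had strain differences of opposite sign in the sexes, as did *Cndp1*, with the signs the other way round (interaction −1.04, adjusted p = 9.12e-05). *Slc6a13* carries GABA and beta-alanine and was higher in females of both strains (0.37 and 0.25). For sex, 5 carriers were higher and 3 lower in BPH/2J females (15.6% and 13.4% of all probe sets) and 6 higher and 2 lower in BPN/3J females (14.4% and 14.8%). *Slc7a8*, a neutral amino acid exchanger, had sex differences of 0.55 in BPH/2J and 0.64 in BPN/3J.

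Peptidases of the brush border split in both directions. Of 12 measured, 2 were higher (*Naaladl1* 0.91 and *Mme* 0.51) and 2 lower (*Enpep* −0.44 and *Folh1* −0.26) in BPH/2J females, and 3 were higher (*Mme* 1.06, *Dpep1* 0.19 and *Mep1b* 0.19) and 2 lower (*Enpep* −0.53 and *Folh1* −0.39) in BPH/2J males, against 8.01% and 6.48% of all probe sets higher and lower in females and 7.48% and 7.70% in males. In females of each strain 5 were higher and 4 lower than in males, against 15.6% and 13.4% in BPH/2J and 14.4% and 14.8% in BPN/3J. *Mme* (neprilysin) was higher by 0.83 in BPH/2J and 1.37 in BPN/3J, *Dpp4* by 0.58 and 0.65 and *Naaladl1* by 1.34 and 0.59, while *Enpep* (aminopeptidase A) had −0.24 and −0.34. *Mme* had the 4-group order of *Slc15a2* except that BPN/3J females exceeded BPH/2J males, with 12.48 ± 0.0735 in BPH/2J females, 11.66 ± 0.0563 in BPH/2J males, 11.97 ± 0.110 in BPN/3J females and 10.60 ± 0.0909 in BPN/3J males.

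A list of peptidases and related hydrolases was also read. Most belong to the cytosol and lysosome, the compartments in which absorbed peptides are cut. Among those that passed, more were lower than higher in females. Of 16 measured, 2 were higher and 10 lower in BPH/2J females than males, against 15.6% and 13.4% of all probe sets, and 4 higher and 10 lower in BPN/3J females than males, against 14.4% and 14.8%. The list median was −0.24 in BPH/2J and −0.17 in BPN/3J, against 0.0022 and −0.02 over all genes with a single-symbol probe set. Those that were lower included *Blmh*, bleomycin hydrolase (−0.66 in BPH/2J and −0.58 in BPN/3J), *Lap3*, leucine aminopeptidase (−0.60 and −0.38), *Cpq*, a carboxypeptidase (−0.47 and −0.72), and *Pepd*, prolidase (−0.52 and −0.57). *Acy1*, an aminoacylase of the same M20 family as the carnosine dipeptidases, went the other way (0.77 and 0.41), and *Pm20d1*, also of that family, was lower in females (−0.25 and −0.34).

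For strain the same list was divided, with 3 higher (*Acy1* 0.48, *Rnpep* 0.28 and *Cpq* 0.21) and 4 lower (*Nln* −0.29, *Dpp7* −0.29, *Xpnpep1* −0.24 and *Lta4h* −0.15) in BPH/2J females, and 4 higher (*Rnpep* 0.34, *Dpp7* 0.21, *Lap3* 0.20 and *Tpp1* 0.13) and 1 lower (*Nln* −0.33) in BPH/2J males. None of these exceeded the strain difference of *Cndp2* in its sex, 0.80 in females and 1.30 in males. The interaction was passed by *Cpq* (0.25), *Lap3* (−0.22) and *Dpp7* (−0.50), a lysosomal dipeptidyl peptidase whose strain difference, like that of *Cndp1*, had opposite signs in females and males.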

How the data were processed

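Kidney RNA of 24 mice was hybridised to Affymetrix Mouse Gene 1.0 ST arrays. The authors deposited log2 values made by RMA, which were used as they stand. Sources used here do not give the RMA version. RMA values are relative within the array set, and array medians still differed slightly (6.89 to 6.97). Groups came from the labels, and 0 value columns were left out. Gene symbols came from the array's probe annotation, in which 21159 of 28853 probe sets (73.3%) carried exactly 1 symbol. The annotation and genome positions of RefSeq (GRCm38.p6) were used for neighbours and promoters, and the promoter table held 2 of the 5 members.

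Differences were tested with limma 3.58.1 (lmFit and eBayes, R 4.3.3) over all 28853 probe sets. Each strain comparison used the 12 arrays of 1 sex and, following the methods, a Bonferroni threshold of 0.05. Each sex comparison used the 12 arrays of 1 strain and a Benjamini-Hochberg threshold of 0.05, and so did the strain-by-sex interaction (strain difference in females minus that in males), which used all 24 arrays. For genes on lists the Benjamini-Hochberg threshold was used throughout, and 128 of 138 listed genes had a single-symbol probe set, 1 of them under a newer symbol. The number of arrays limits the precision.

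The members and lists were chosen with earlier results of these data known, and *Hdc* and *Cndp2* are genes that the study itself picked from these arrays. Named genes were all members, up to 4 genes per list with the largest difference among those that passed, any gene behind a count of 5 or fewer, the 3 nearest profiles of each member called for strain, and the 4 nearest genes on each side of the called loci. Scripts were tested on simulated data. Alternatives were the methods' t-test (whose variance assumption they do not state) with unequal and with pooled variances, the other adjustment, a minimum of 1.5-fold, removal of probe sets under percentile 40 in mean expression, single-symbol probe sets, quantile normalisation, a common median for all arrays, all 24 arrays in each fit, trended and robust variance, a replicate block, marker means as covariates, BPN/3J female arrays 2 and 5 left out, and each array left out in turn. Plots used matplotlib 3.10.9 under Python 3.11.15. Apart from the direction stated for *Cndp2*, the authors' qPCR was not used here, nor were their blood pressure records.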

Additional observations from a re-analysis of the deposited data

Results flagged for a closer look

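The strain difference differed between the sexes, by the interaction test on 24 arrays (limma, Benjamini-Hochberg adjusted p under 0.05), for 3 of the 5 members. Of all 28853 probe sets, 1.76% passed this test. The strain difference in females minus that in males was 1.68 for *Cndp1* (1.23 in females and −0.45 in males), −0.50 for *Cndp2* (0.80 and 1.30) and −0.25 for *Slc15a2* (0.61 and 0.85). That of *Slc15a2* did not pass by Bonferroni or with the brown fat covariate. Among the genes of the pathway lists the interaction test, with Benjamini-Hochberg adjustment, was passed by *Hdc* (−4.43), *Slc38a3* (−1.04), *Naaladl1* (0.75), *Mme* (−0.55), *Dpp7* (−0.50), *Agxt2* (−0.28), *Cpq* (0.25) and *Lap3* (−0.22). Among the genes nearest to a member in profile it was passed by *Clip4* (0.74) and *Nat8* (0.47) for *Cndp1*, *Snx31* (−1.13) and *Col6a6* (−0.83) for *Cndp2*, and *Shmt1* (−0.34) for *Slc15a2*. These genes were chosen for the likeness of their group profile to the member, so the sign of their interaction is no separate result. *Cckar* (0.32), *Nudt19* (0.22), *Slit2* (−0.01) and *Rhbg* (0.06) did not pass.

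The 20 groups of member values held no array far from its group. Of 28 groups of marker means, 1 did: in BPN/3J males the gap of the lowest array (11.73) in the mean of the S3 segment markers was 0.694 of the group's range, over the limit of Dixon's test for a group of 6. Chance gives about 1 in 20 such groups.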

How the results depend on the processing

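The alternatives were run on the counts of probe sets and members and on each member's difference. *Cndp1*, *Cndp2* and *Slc15a2* kept their direction in every comparison and alternative run. In males 740 probe sets passed, against 447 by the methods' t-test with unequal variances (578 with pooled variances), 1188 with all 24 arrays, 4381 by Benjamini-Hochberg, 471 over 1.5-fold, 321 with the replicate block and 570 to 623 with 1 array left out. Members called were 2, against 4 by Benjamini-Hochberg, 3 with all 24 arrays, with dim probe sets left out or with trended and robust variance, and 2 to 3 with 1 array left out. In females 681 passed, against 398 by the methods' t-test with unequal variances (526 with pooled variances), 1106 with all 24 arrays, 4180 by Benjamini-Hochberg, 433 over 1.5-fold, 1022 with trended and robust variance, 304 with the replicate block, 159 with the brown fat covariate and 517 to 563 with 1 array left out, with 3 members in each. For sex, 8349 passed in BPH/2J, against 1361 by Bonferroni, 853 over 1.5-fold, 5162 with the brown fat covariate and 7357 to 7942 with 1 array left out, and members called were 4, against 3 by Bonferroni or with a common median, 2 over 1.5-fold, 5 with the replicate block and 4 to 5 with 1 array left out. In BPN/3J 8424 passed, against 1367 by Bonferroni, 1014 over 1.5-fold and 7582 to 8135 with 1 array left out, with 3 members in each. The interaction had 508, against 104 by Bonferroni, 170 over 1.5-fold, 279 with the brown fat covariate and 424 to 534 with 1 array left out, and 3 members, against 2 by Bonferroni or with the brown fat covariate (*Slc15a2* lost in each) and 1 over 1.5-fold (*Cndp1*).

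*Cndp1* in males also passed with dim probe sets left out (adjusted p = 0.0460) and with trended and robust variance (adjusted p = 0.00271). It stayed uncalled in 9 of the 13 alternatives that kept every array, and passed in 1 of 12 fits with 1 array left out. *Slc15a1* turned its sign for sex in BPN/3J with quantile normalisation (0.0245), with hepatocyte and adrenal cortex covariates (0.0579), without BPN/3J females 2 and 5 (0.10) and in 6 of 12 fits with 1 array left out (−0.0526 to 0.0508), and for strain in females with the brown fat covariate (0.0216). The brown fat covariate was chosen after seeing the data, and in females its values did not overlap between the strains. Where causes are not named, the cause was not tested. Whether replicate numbers pair the arrays was not settled. Deviations of same-numbered arrays correlated at −0.57 to 0.44. They exceeded 0.1 in 4 of 6 pairs for strain in females, 0 of 6 for strain in males and 3 of 6 for sex in each strain. With the replicate block, *Slc15a1* passed for sex in BPH/2J (adjusted p = 0.0399) and no other call of a member changed. No other probe set lists a member, so that alternative could not be run.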
